A study of Mus musculus with 4 samples.

Results

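The 4 neuropeptide genes through which the arcuate nucleus of the hypothalamus controls feeding, *Agrp*, *Npy*, *Pomc* and *Cartpt*, were followed through every hypothalamic library of Western diet (WD)-fed wild-type (WT) and *Tas1r3*-/- mice. The members were taken by gene symbol, and the counts of all RefSeq transcripts of a symbol were added. All 4 were found, out of 16335 genes in the table, and all 4 had enough counts to be tested.

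Feeding is set in the arcuate nucleus by 2 groups of neurons with opposite effects. Neurons that make AgRP and NPY promote eating. NPY acts on Y receptors, and AgRP blocks the melanocortin receptors MC3R and MC4R. Neurons that make POMC restrain eating, because POMC is cut into α-MSH, which activates the same melanocortin receptors. *Cartpt* encodes the CART peptides, which are made by many POMC neurons and by neurons of several other hypothalamic nuclei. *Pomc* is also the ACTH precursor of the pituitary gland, which hangs below the hypothalamus, and *Npy* is also expressed by interneurons outside the hypothalamus.

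All mice were male C57BL/6 animals kept for 12 weeks on WD, a 60% fat diet with 30% sucrose in the drinking water. Both groups therefore share the diet, and they differ in genotype: 2 libraries came from WT littermates and 2 from *Tas1r3*-/- mice, a conventional knockout that lacks the sweet and umami taste receptor subunit in all tissues. Total RNA was taken from tissue samples of the hypothalamus, so fewer cells of a type in a sample and less RNA per cell cannot be told apart. The labels do not say that the libraries came from separate animals, the study describes more mice for each group than there are libraries here, and p-values measure only the spread between these samples.

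The libraries held 5726320 to 6177693 estimated counts in named genes, and 3 counts, the limit that a count of 0 allows, were worth 0.486 to 0.524 CPM, the unit of counts scaled to the size of each library. Sets of 4 values are given below in the order WT WD replicate 1, WT WD replicate 2, *Tas1r3*-/- WD replicate 1 and *Tas1r3*-/- WD replicate 2. *Tas1r3* itself was at 6.06, 4.44, 1.12 and 1.23 CPM, from 7 to 35.3 estimated counts, so both knockout libraries were below both WT libraries. Its exons share 3495 bases with exons of *Dvl1* on the other strand. WT WD replicate 2 stood apart from the other libraries. The root mean square of its log2 differences from them over all genes tested was 0.719 to 0.759, against 0.373 to 0.417 among the other 3. The homeobox gene *Nkx2-1*, which specifies the ventral hypothalamus and was singled out after its values were seen, was at 41.5 CPM in WT WD replicate 1, at 28.7 and 31.0 CPM in the *Tas1r3*-/- WD libraries and at 0 counts in WT WD replicate 2. This gene alone, chosen in that way, cannot show that the library went against its tissue label. Of 10 markers of other hypothalamic nuclei, described below, 9 were also at least 4-fold below each other library there. Of 9 genes for receptors of the peptides and accessory proteins, 1 was. Results that rest on WT WD replicate 2 are given with and without it.

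The sequences shown mark where *Agrp*, the member with the fewest counts, was assayed in the study. The *Agrp* primers of the study's quantitative PCR both lay in the coding part of exon 6 on chromosome 8 (GRCm39), at chr8:106293521-106293539 on the minus strand and chr8:106293451-106293470 on the plus strand. They span an 89 bp product that is present in 5 of 5 annotated *Agrp* transcripts.
Agrp forward primer: ctccgcgtcgctgtgtaag
Agrp reverse primer: gaagcggcagtagcacgtag

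*Agrp*, the antagonist of the melanocortin receptors, is annotated on the minus strand at chr8:106293326-106364065 in GENCODE M39, with 6 exons and 778 bases in its main transcript. Of these bases, 582 also lie in exons of the long noncoding RNA *Gm38250* and 154 in exons of *Ctcf*, both on the other strand. A further long noncoding RNA, *Gm5914*, lies on the same strand as *Agrp* and shares 154 bases with it. It was not stated whether strand was used in counting, and strand could not separate *Gm5914*. Reads of *Agrp* and its neighbors therefore cannot be told apart with certainty. *Agrp* had 38, 4, 33 and 28 counts. On the CPM scale these were 6.52 (95% Poisson interval 4.61 to 8.95), 0.658 (0.179 to 1.68), 5.29 (3.64 to 7.43) and 4.90 (3.26 to 7.09). Here and below, intervals cover counting error only. WT WD replicate 2 was the low library, the other 3 had overlapping intervals, and the *Tas1r3*-/- WD values fell between the WT WD values. *Gm38250* did not share the drop, with 19.0, 29.0, 32.0 and 26.0 counts.

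*Npy*, whose peptide stimulates eating through Y receptors, has its main transcript on chromosome 6 at chr6:49799690-49806487 and overlaps no other annotated gene. It had 153, 8, 76 and 86 counts, or 26.3, 1.32, 12.2 and 15.1 CPM. Again WT WD replicate 2 was lowest and the *Tas1r3*-/- WD libraries lay between both WT WD libraries, but WT WD replicate 1 stood above the *Tas1r3*-/- WD libraries with an interval (22.3 to 30.8 CPM) that did not reach them.

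*Pomc*, the precursor of α-MSH, β-endorphin and ACTH, lies on the plus strand at chr12:4004944-4010642 with 3 exons. Its counts, rounded to whole numbers, were 651, 15, 2134 and 258, or 112, 2.47, 342 and 45.2 CPM. No other member spread so widely within both groups: the *Tas1r3*-/- WD libraries differed 7.57-fold (95% counting interval 6.65 to 8.65) and the WT WD libraries 45.3-fold (27.2 to 81.4).

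*Cartpt* has its main transcript on the minus strand at chr13:100034995-100037599, with 3 exons. Its rounded counts were 1069, 75, 807 and 683, or 183, 12.3, 129 and 120 CPM. The *Tas1r3*-/- WD libraries were 1.08-fold apart (0.975 to 1.20), which is within counting error, and both were below WT WD replicate 1 and above WT WD replicate 2.

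**Figure D1:**
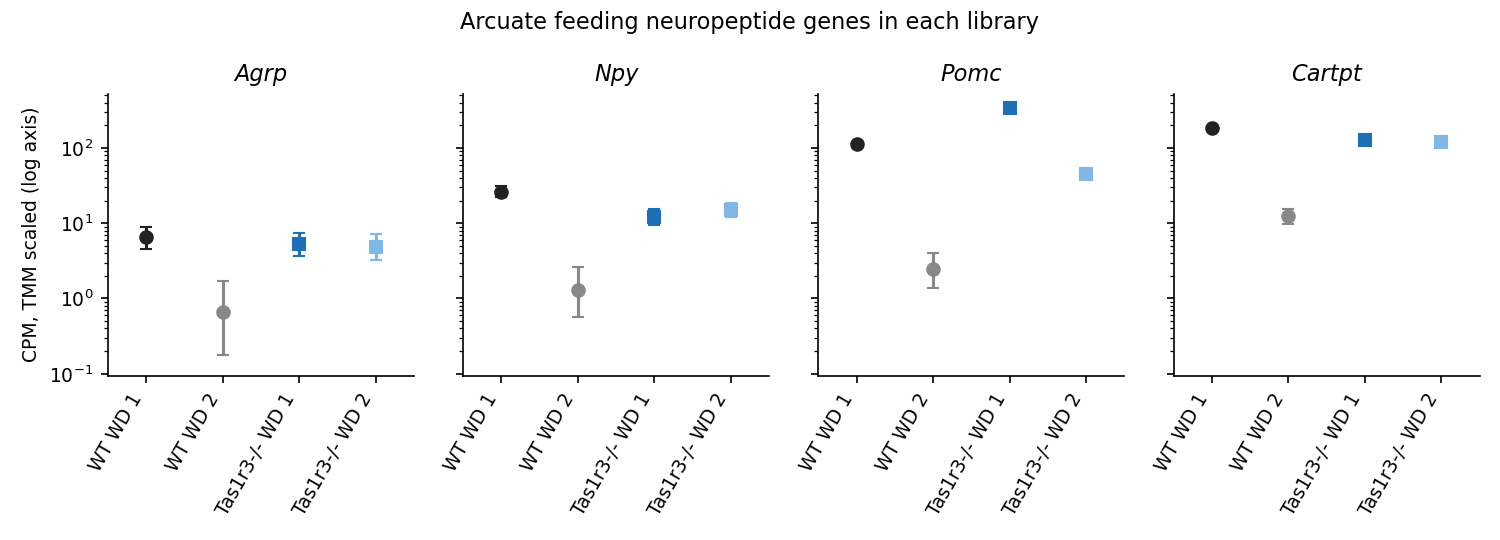
CPM (TMM scaled, log axis) of *Agrp*, *Npy*, *Pomc* and *Cartpt* in each of the 4 libraries, with 95% Poisson intervals of the counts as bars; circles are WT WD and squares *Tas1r3*-/- WD. WT WD replicate 2 is the lowest library for each gene, from 0.658 CPM for *Agrp* to 12.3 CPM for *Cartpt*, and *Tas1r3*-/- WD replicate 1 is the highest for *Pomc*, at 342 CPM.

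The genotype comparison asked whether the neuropeptide genes differed between WD-fed *Tas1r3*-/- and WD-fed WT mice. With edgeR's quasi-likelihood test, and a DEG defined by an adjusted p under 0.05 and a change of at least 1.5-fold, 0 of 4 members were DEGs, beside 0% of the 14340 genes tested. At an unadjusted p under 0.05 there were also 0 of 4 members, beside 5.38% of all genes. DESeq2 called 0 of 4 members and 0.0652% of all genes, and limma-trend called 0 of 4 and 0% of all genes. In none of the 4 did the groups separate, whereas 39.5% of all genes tested had both *Tas1r3*-/- WD libraries above or below both WT WD libraries.

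*Agrp* averaged 3.59 ± 4.14 CPM in WT WD and 5.10 ± 0.273 CPM in *Tas1r3*-/- WD (SD, n = 2 each), a log2 fold change of 0.51 (SE 0.92, edgeR adjusted p = 0.891). *Npy* averaged 13.8 ± 17.6 and 13.6 ± 2.04 CPM, with a log2 fold change of -0.01 (SE 1.12, edgeR adjusted p = 0.999). *Pomc* averaged 57.1 ± 77.2 and 194 ± 210 CPM, with a log2 fold change of 1.77 (SE 1.64, edgeR adjusted p = 0.793). *Cartpt* averaged 97.8 ± 121 and 124 ± 6.89 CPM, with a log2 fold change of 0.35 (SE 1.09, edgeR adjusted p = 0.943). For *Agrp*, *Npy* and *Cartpt* the SD of WT WD exceeded its mean while that of *Tas1r3*-/- WD did not, and for *Pomc* it exceeded the mean in both groups. The standard errors, from 0.92 to 1.64 on the log2 scale, were larger than each difference other than that of *Pomc*.

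Both the sign and the size of these differences depended on which WT WD library was kept. Without WT WD replicate 1, all 4 members were called higher in *Tas1r3*-/- WD, beside 7.54% of all genes called in that direction and 14.3% in both. The log2 fold changes were then 2.92 for *Agrp* (edgeR adjusted p = 0.0129), 3.35 for *Npy* (edgeR adjusted p = 5.47e-04), 6.29 for *Pomc* (edgeR adjusted p = 0.00957) and 3.34 for *Cartpt* (edgeR adjusted p = 9.08e-07). Without WT WD replicate 2, 0 of 4 were called, beside 0.218% of all genes in both directions and 0.184% called higher, and 3 of the 4 signs were negative. The log2 fold changes became -0.35 for *Agrp* (SE 0.40, edgeR adjusted p = 0.743), -0.95 for *Npy* (SE 0.21, edgeR adjusted p = 0.127) and -0.56 for *Cartpt* (SE 0.11, edgeR adjusted p = 0.0973), and *Pomc* stayed positive at 0.80 (SE 0.78, edgeR adjusted p = 0.698). With 1 WT WD library left, that library is assumed to vary as the others do.

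The direction of *Pomc* also depended on a *Tas1r3*-/- WD library. Without *Tas1r3*-/- WD replicate 1 its log2 fold change was -0.34, and without *Tas1r3*-/- WD replicate 2 it was 2.58. With WT WD replicate 2 and *Tas1r3*-/- WD replicate 1 both left aside, *Tas1r3*-/- WD replicate 2 was below WT WD replicate 1 for every member. The log2 difference was -1.30 for *Pomc*, -0.41 for *Agrp*, -0.80 for *Npy* and -0.62 for *Cartpt*. These are differences between 2 libraries, with no test.

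**Figure D2:**
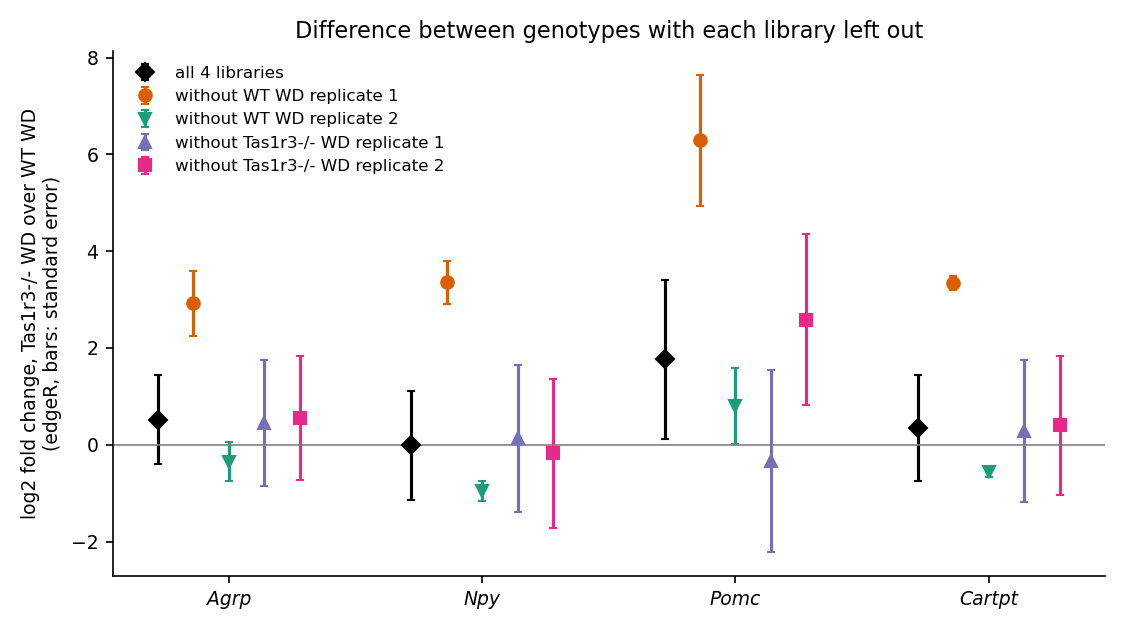
Log2 fold change of *Tas1r3*-/- WD over WT WD (edgeR, bars are standard errors) for each member with all 4 libraries and with each library left out; the line marks 0. With WT WD replicate 1 left out the points lie between 2.92 and 6.29, and with replicate 2 left out they lie between -0.95 and 0.80.

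Against WT WD replicate 1 alone, the library that kept its hypothalamic markers, the 2 genes that promote eating were not higher in *Tas1r3*-/- WD. *Npy* was 2.15-fold higher in WT WD replicate 1 than in *Tas1r3*-/- WD replicate 1 (95% counting interval 1.63 to 2.88) and 1.74-fold higher than in replicate 2 (1.33 to 2.30). *Agrp* was 1.23-fold higher than in *Tas1r3*-/- WD replicate 1 (0.753 to 2.03) and 1.33-fold higher than in replicate 2 (0.795 to 2.25), and both intervals include no difference. *Cartpt* was 1.42-fold higher than in *Tas1r3*-/- WD replicate 1 (1.29 to 1.56) and 1.53-fold higher than in replicate 2 (1.39 to 1.69). So 3 of 4 members were below WT WD replicate 1 in both *Tas1r3*-/- WD libraries, as were 37.5% of all genes tested. These ratios compare libraries and not genotypes.

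The drop in WT WD replicate 2 was large for every member. Compared with WT WD replicate 1, *Agrp* was 9.91-fold lower (95% counting interval 3.57 to 38.2), *Npy* 20.0-fold lower (9.87 to 47.0), *Pomc* 45.3-fold lower and *Cartpt* 14.9-fold lower (11.8 to 19.1). All 4 were at least 4-fold below each of the other libraries, as were 1.28% of the genes tested. In sum the members were at 328, 16.8, 489 and 185 CPM.

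Peptides of neurons outside the arcuate nucleus were low in the same library. *Pmch*, the melanin-concentrating hormone precursor of the lateral hypothalamus, was at 767, 6.65, 373 and 558 CPM. *Avp*, which encodes vasopressin, was at 335, 2.30, 197 and 203 CPM, and *Oxt*, which encodes oxytocin, at 108, 3.46, 92.6 and 120 CPM. Of 10 markers of other hypothalamic nuclei, 9 were at least 4-fold below each other library in WT WD replicate 2 and *Nr5a1*, the marker of the ventromedial nucleus, was at 0 counts there. The exception was *Lhx9*, chosen after its values were seen, at 94.1 CPM there and 3.09 to 9.28 CPM elsewhere. The summed CPM of the list was 1577, 111, 885 and 1131.

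Thalamic genes moved the other way. Of 11 thalamic markers, 9 were at least 4-fold above each other library in WT WD replicate 2, as were 0.628% of all genes, and their summed CPM was 348, 3117, 412 and 621. *Prkcd*, a protein kinase C of thalamic relay neurons, was at 10.6, 584, 15.7 and 41.5 CPM. *Adarb1*, an RNA editing enzyme, was at 207, 949, 243 and 315 CPM, and *Ntng1*, a netrin G, at 45.8, 384, 47.6 and 67.6 CPM. All 3 were highest in the library in which the 4 members were lowest. *Ttr*, the transthyretin gene of the choroid plexus, was at 4.29, 677, 3.05 and 0.701 CPM, and 6 of 8 choroid plexus markers were at least 4-fold above each other library in WT WD replicate 2, beside 1.10% of all genes in the table. *Slc17a7*, the vesicular glutamate transporter of cortex and thalamus, was at 10.8, 265, 2.38 and 11.9 CPM. The part of these tissues in the values of the 4 members was not tested. In the remaining libraries, both *Tas1r3*-/- WD libraries were above WT WD replicate 1 for 9 of the 11 thalamic markers, beside 37.6% of all genes tested. For 7 of the 10 hypothalamic markers both were below it, beside 37.5% of all genes tested.

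**Figure D3:**
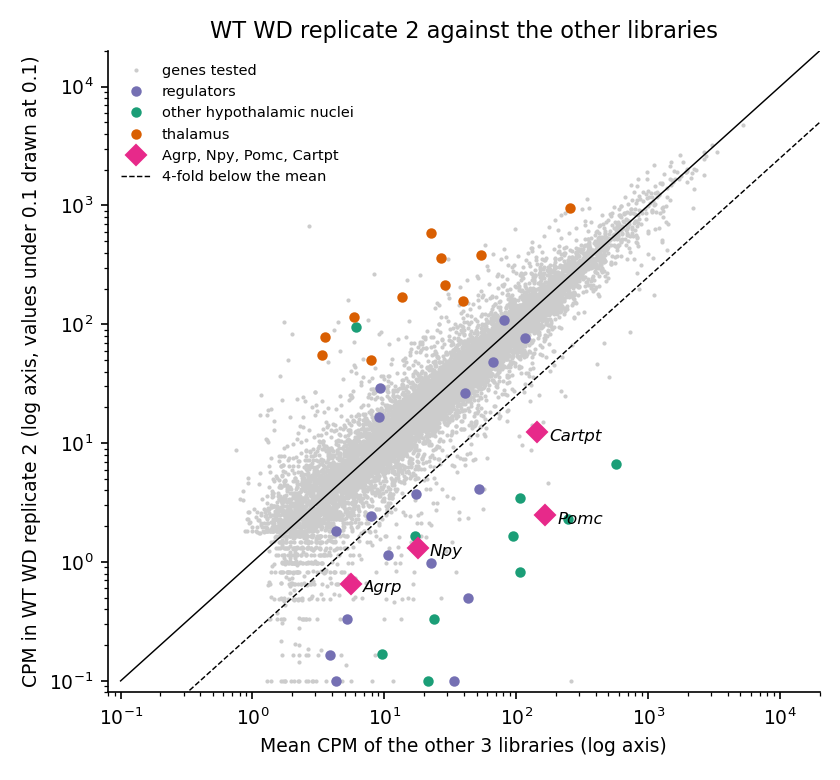
CPM of each gene tested in WT WD replicate 2 against the mean CPM of the other 3 libraries (both log axes, values under 0.1 drawn at 0.1); the solid line marks equal values and the dashed line 4-fold below. *Agrp*, *Npy*, *Pomc* and *Cartpt* lie below the dashed line together with most markers of other hypothalamic nuclei, and the thalamic markers lie above the solid line.

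The high *Pomc* of *Tas1r3*-/- WD replicate 1 came with transcripts of pituitary hormones. *Gh*, the growth hormone gene, was at 12.2, 0, 760 and 2.45 CPM. *Prl*, the prolactin gene, was at 1.37, 0, 498 and 0.525 CPM, and *Cga*, the shared subunit of the glycoprotein hormones, at 0.858, 0, 135 and 0.701 CPM. Of 15 pituitary markers 13 were in the table, and their summed CPM was 38.99, 5.96, 1484 and 26.3. In *Tas1r3*-/- WD replicate 1 none of the 13 was at 0, whereas 5, 5 and 3 were at 0 in WT WD replicates 1 and 2 and *Tas1r3*-/- WD replicate 2. In *Tas1r3*-/- WD replicate 1, 9 of the 13 were at least 4-fold above each other library, beside 0.202% of all genes in the table, and 0 of 4 members were. Among the genes tested *Gh* alone met this (0.00697%), because the filter of the test removes genes that are counted mainly in a single library, *Prl* and *Cga* among them. *Pomc* in WT WD replicate 1 was 0.326 of its level there (95% counting interval 0.299 to 0.357). The part of pituitary RNA in the *Pomc* counts was not tested. *Agrp*, *Npy* and *Cartpt* did not share the rise, each being at most 1.08-fold above *Tas1r3*-/- WD replicate 2.

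Ratios between members within a library do not depend on scaling between libraries. The ratio of *Npy* to *Agrp* counts was 4.03, 2, 2.30 and 3.07, so the groups overlapped. The ratio of *Agrp* to *Cartpt* was 0.0356, 0.0533, 0.0409 and 0.0410 and that of *Npy* to *Cartpt* was 0.143, 0.107, 0.0942 and 0.126. These ratios spread less over the libraries than the levels themselves, since the members of each pair were low together in WT WD replicate 2. The ratio of *Cartpt* to *Pomc* was 1.64, 4.99, 0.378 and 2.65. *Pomc* thus took 70.0% of the counts of the 4 members in *Tas1r3*-/- WD replicate 1 and 14.7% to 34.1% elsewhere. *Npy* took 8.01%, 7.84% and 8.15% in the libraries other than *Tas1r3*-/- WD replicate 1, where it took 2.49%.

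Per kilobase of the main transcript, the order of the levels was *Cartpt*, *Pomc*, *Npy*, *Agrp* in 3 of 4 libraries, and *Pomc* led in *Tas1r3*-/- WD replicate 1. On this scale *Cartpt* was at 148, 9.95, 104 and 96.5 CPM per kilobase and *Pomc* at 111, 2.45, 339 and 44.9. *Npy* was at 46.4, 2.32, 21.5 and 26.6 CPM per kilobase and *Agrp* at 8.38, 0.846, 6.80 and 6.30. The ranges of neighbors in the order overlapped across libraries, and within every library *Npy* was above *Agrp*. With the longest coding transcript of each gene instead, *Pomc* passed *Cartpt* in WT WD replicate 1 and *Agrp* passed *Npy* in WT WD replicate 2.

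Single transcripts were less certain than their sums, because the authors' counting divided reads among them. *Npy* had 1 transcript in the table, *Agrp* and *Cartpt* 2 each, and *Pomc* 3. The *Cartpt* counts were divided between its transcripts in every library, with 47.8% to 65.2% on the same transcript. The leading *Pomc* transcript differed, with 68.6%, 19.1%, 44.6% and 55.7% on 1 transcript and 31.4%, 80.4%, 54.8% and 44.0% on another. For *Agrp* the share of 1 transcript ran from 0.0564% in *Tas1r3*-/- WD replicate 1 to 100% in WT WD replicate 2, from 33 and 4 counts in all.

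Of 10 genes for the receptors of these peptides and accessory proteins 9 were in the table, 0 of 9 were DEGs, and the median log2 fold change was 0.21, beside -0.01 over all genes. *Mc4r*, the melanocortin receptor that carries most of the effect on feeding, was at 3.95, 0.329, 4.004 and 5.96 CPM. It was the only receptor gene at least 4-fold below each other library in WT WD replicate 2. *Mc3r*, the other neural melanocortin receptor, was at 12.6, 10.2, 8.70 and 9.81 CPM, lower in both *Tas1r3*-/- WD libraries but without passing the test (log2 fold change -0.30, SE 0.24, edgeR adjusted p = 0.775).

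Among the NPY receptors, *Npy1r* was at 18.5, 12.2, 17.0 and 14.4 CPM, *Npy2r* at 30.7, 10.5, 28.1 and 24.9 CPM and *Npy5r* at 9.95, 2.47, 6.58 and 4.73 CPM. In each of these 3 genes the *Tas1r3*-/- WD libraries fell between the WT WD libraries, as they did for *Npy*. *Mrap2*, an accessory protein of MC4R, was at 48.0, 18.6, 47.2 and 59.0 CPM. *Oprm1*, the μ-opioid receptor that binds β-endorphin, was at 4.87, 4.06, 5.61 and 6.35 CPM. *Sdc3*, a syndecan that promotes AgRP action, was at 534, 513, 472 and 524 CPM, and *Atrn*, the attractin gene of the agouti pathway, at 154, 176, 185 and 198 CPM. *Oprm1* and *Atrn* were higher in both *Tas1r3*-/- WD libraries, as was *Mc4r*, and none passed the test. For *Mc4r* the nearest values of the groups were 4.004 and 3.95 CPM, from 25.0 and 23 counts. So 3 of the 9 receptor genes separated upward and 1, *Mc3r*, downward. Beside this, 39.5% of all genes tested separated in either direction. With WT WD replicate 2 left out, the median log2 fold change of the receptor genes was -0.10, beside 0.002 over all genes. With WT WD replicate 1 left out, it was 0.54, beside 0.016 over all genes.

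The enzymes and granule proteins that mature the peptides summed to 5253, 5242, 4983 and 5096 CPM. Of 10 genes 0 were DEGs, with a median log2 fold change of 0.07. *Cpe*, the carboxypeptidase that trims the cut peptides, was at 1778, 2635, 1697 and 1799 CPM. *Scg2*, a granule protein, was at 1301, 516, 1232 and 1264 CPM, and *Pcsk1n*, the inhibitor of prohormone convertase 1, at 673, 549, 556 and 542 CPM. The near-equal sums hide shifts of single genes in both directions. With WT WD replicate 1 left out, the log2 fold change was 1.28 for *Scg2* and -0.59 for *Cpe*, with a median of 0.17 over the list. These shifts rested on WT WD replicate 2. With that library left out instead, the values were -0.06 for *Scg2*, -0.02 for *Cpe* and -0.0001 for the median.

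Of 17 genes for hormone receptors and transcription factors that act in these neurons, 0 were DEGs, and 8 were at least 4-fold below each other library in WT WD replicate 2. The 3 most abundant genes of the list were not among these 8. *Stat3*, the transcription factor of leptin signaling, was at 109, 76.6, 121 and 119 CPM, *Insr*, the insulin receptor, at 63.5, 48.4, 68.7 and 68.3 CPM and *Htr2c*, the serotonin receptor of POMC neurons, at 63.8, 109, 84.2 and 94.2 CPM. *Otp*, a homeobox gene that specifies AgRP neurons, was at 53.9, 0.497, 39.5 and 35.7 CPM. The median log2 fold change of the list was 0.47 with all libraries, -0.17 with WT WD replicate 2 left out and 2.04 with replicate 1 left out instead, a change of sign like that of *Agrp* and *Cartpt*.

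Among 7 markers of other arcuate neurons, 5 of which were tested, 0 were DEGs with all libraries. *Pdyn*, which encodes prodynorphin, was at 112, 18.8, 71.0 and 70.1 CPM. Without WT WD replicate 2 it was a DEG, lower in *Tas1r3*-/- WD with a log2 fold change of -0.67 (SE 0.10, edgeR adjusted p = 0.0368), and so was *Avp* at -0.75 (SE 0.10, edgeR adjusted p = 0.0348). *Tac2*, the neurokinin B gene, was at 21.8, 63.0, 15.4 and 22.1 CPM, and *Prlr*, the prolactin receptor, at 28.1, 7.498, 41.5 and 42.9 CPM.

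**Figure D4:**
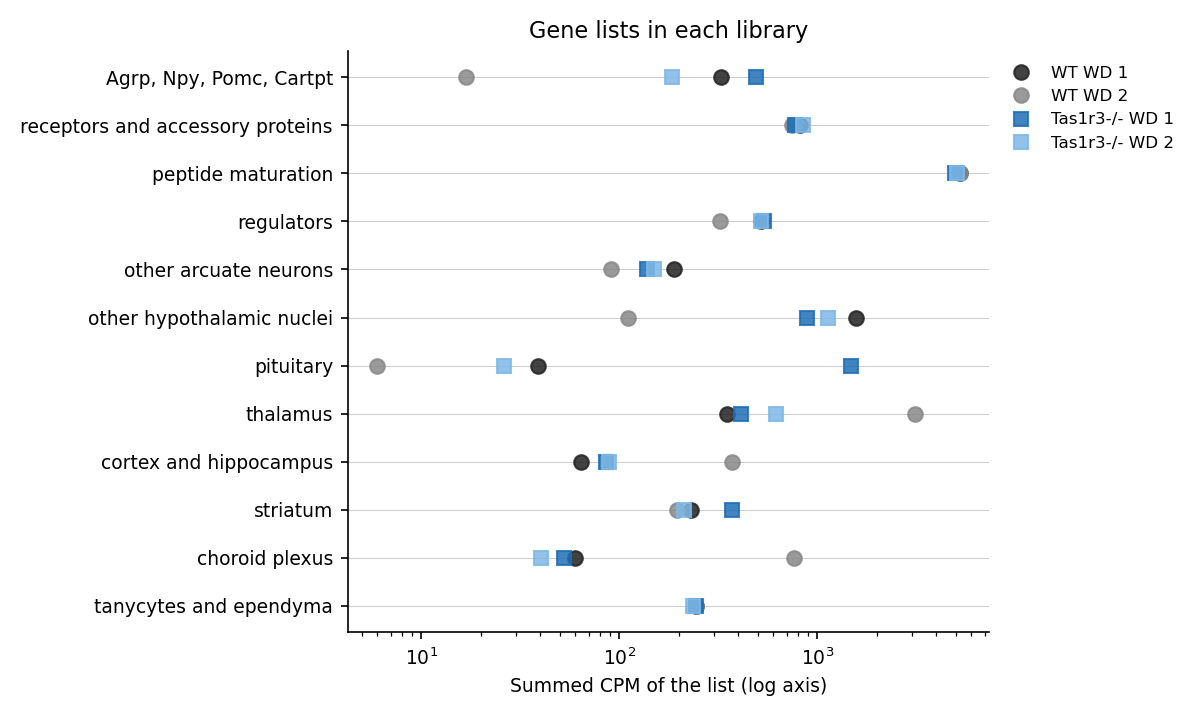
Summed CPM (log axis) of the 4 members and of each gene list in each library; circles are WT WD and squares *Tas1r3*-/- WD. The members, markers of other hypothalamic nuclei and the pituitary list are lowest in WT WD replicate 2, the thalamic list is highest there at 3117 CPM, and the pituitary list is highest in *Tas1r3*-/- WD replicate 1 at 1484 CPM.

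Markers of tanycytes and ependyma summed to 236 to 245 CPM in every library, but 4 of the 9 were at least 4-fold below each other library in WT WD replicate 2. Of the 3 most abundant, *Col23a1* was among these, at 50.6, 2.64, 32.0 and 27.3 CPM, whereas *Col25a1* was at 96.6, 135, 109 and 115 CPM and *Foxj1* at 31.1, 56.9, 27.1 and 30.3 CPM. Striatal markers, led by *Rgs9*, *Pde10a* and *Ppp1r1b*, summed to 230.4, 196, 372 and 213 CPM. Markers of cortex and hippocampus summed to 64.2, 371, 85.8 and 88.8 CPM.

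The genes whose profile over the 4 libraries lay closest to that of a member were sought among 10870 genes with a mean of at least 10 CPM, by the root mean square difference of centered log2 CPM. For *Agrp* they were *Npffr1*, a receptor of RFamide peptides (0.0928), *Gpr165* (0.0957) and *Sst*, the somatostatin gene (0.0981). *Sst* was at 188, 25.4, 128 and 129 CPM. For *Npy* they were *Vip* (0.145), *Magel2* (0.214) and *Col23a1* (0.215), with *Vip*, a neuropeptide gene of the suprachiasmatic nucleus, at 18.4, 1.15, 10.6 and 11.4 CPM.

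For *Cartpt* they were *Asb4*, a marker of arcuate neurons (0.0961), *Col23a1* (0.105) and *Magel2* (0.137). *Asb4* was at 61.9, 4.11, 52.0 and 42.4 CPM. For *Pomc* no gene came close: *Nr5a1*, *Otp* and *Irs4* were nearest at 1.02, 1.02 and 1.03. *Irs4*, which encodes an insulin receptor substrate, was at 174, 4.59, 176 and 173 CPM, with no rise in *Tas1r3*-/- WD replicate 1. Each of the genes named for likeness was lowest in WT WD replicate 2, the library that stood apart. This follows from how they were chosen, since every member was lowest there, and it is no separate result.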

How the data were processed

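Ion Torrent reads were mapped by the authors with STAR (build mm39) in Partek Flow and quantified on RefSeq release 93. The deposited values are estimated counts per transcript, not normalized, and 12.98% of them are exactly whole as written, with no tolerance. A RefSeq table built on GRCm38.p6 served to name genes and paired 30886 of 30930 transcripts with a symbol. The other 44 (0.385% to 2.53% of a library) were left out. Counts were summed by symbol and rounded. Groups and replicate numbers came from the sample labels.

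*Tas1r3*-/- WD was compared with WT WD by edgeR 4.0.16 (quasi-likelihood test, TMM, filterByExpr, Benjamini-Hochberg adjustment over 14340 genes), in R 4.3.3, and the code was tested on simulated data. The common biological coefficient of variation was 0.227. DESeq2 1.42.0, which the study's methods name, limma 3.58.1 and other settings were alternatives. Intervals are exact (Poisson for a level, binomial for a ratio of 2 counts). Levels per kilobase used the canonical transcript of GENCODE M39.

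The members and gene lists were chosen with earlier results of these data known. Genes named are *Tas1r3*, the members, the receptor genes, the 3 most abundant genes and any DEG of every other list, and the 3 genes with the closest profile to each member. *Nkx2-1* and *Lhx9* were added after their values were seen. Protein sequences were not used here. The list of oligodendrocyte markers is not reported here.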

Additional observations from a re-analysis of the deposited data

How the results depend on the processing

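Differences of the members between genotypes could not be told apart from those of single libraries, and *Agrp* rested on 4 to 38 counts. Leaving out each library in turn gave log2 fold changes of -0.35 to 2.92 for *Agrp*, -0.95 to 3.35 for *Npy*, -0.34 to 6.29 for *Pomc* and -0.56 to 3.34 for *Cartpt*, and 0 to 2121 DEGs over all genes. The lowest values came without WT WD replicate 2 for *Agrp*, *Npy* and *Cartpt* and without *Tas1r3*-/- WD replicate 1 for *Pomc*, and the highest without WT WD replicate 1, the setting in which all 4 members were DEGs. There were 32 DEGs without WT WD replicate 2. *Npy*, at -0.01 with all libraries, was also positive with limma-trend (1.07), which averages log values, and without *Tas1r3*-/- WD replicate 1 (0.13). DESeq2 called 9 DEGs over all genes, against 0. WT WD replicate 1 against *Tas1r3*-/- WD replicate 2 alone, chosen after seeing the data, gave -0.41 for *Agrp*, -0.80 for *Npy*, -1.30 for *Pomc* and -0.62 for *Cartpt*. The cause of these changes was not tested.

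Replicates of the 2 genotypes share only a number: the deviations of same-numbered libraries from their group means correlated at 0.082, over 2 pairs. With a replicate block the log2 fold change of *Npy* was 0.71, 0 of 4 members were DEGs, and 667 genes in place of 772 had an unadjusted p under 0.05. Requiring at least 10 counts in every library dropped *Agrp* and *Npy*. Of the other comparisons of a result with an alternative, 81 planned and 5 added kept the direction and the side of the threshold, or moved by less than the spread between libraries. A length weighted by transcript counts was not run.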
